A study of Mus musculus with 30 samples.

Results

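The peaks described here are places in mouse E14 embryonic stem cells where cohesin was listed on the genome without CTCF nearby. They were selected on the peak lists of the untreated cells: a peak of the cohesin subunit SMC1A on chromosomes 1 to 19 or X was taken when it lay more than 1 kb from every CTCF peak. Of 16723 SMC1A peaks on these chromosomes, 2872 met this rule. Another 13665 overlapped a CTCF peak and 186 lay within 1 kb of one without overlap. The rule used the SMC1A and CTCF lists at 0 h, so the absence of CTCF and the SMC1A strengths are descriptions. The remodeler lists, the annotation and the DNA sequence were not used by it.

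Chromatin immunoprecipitation and sequencing (ChIP-seq) was done in cells of genotype CTCF AID, in which CTCF carries an auxin-inducible degron, and degradation is triggered by the auxin IAA. All groups carry the degron and were grown in serum-free medium with LIF, PD0325901 (1 µM) and CHIR99021 (3 µM). CTCF and SMC1A were each profiled in 1 library without IAA (0 h) and 1 after 12 h of IAA. The remodelers were profiled in further lines, CTCF AID and biotin-CHD4, CTCF AID and biotin-CHD8, CTCF AID and biotin-SMARCA4, and CTCF AID and biotin-SMARCA5, with 2 libraries at 0 h and 2 at 12 h in each line, 16 libraries in all. Occupancy by a remodeler was therefore read in other lines than the SMC1A peaks. Whether a line is 1 clone and whether the replicates are separate cultures is not given in the sources used here, so p-values measure only the spread between these samples. The lists give no read counts, and the depth behind them is unknown. At 12 h the CTCF list held 2248 peaks and the SMC1A list 10.

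Cohesin is a ring complex that holds sister chromatids together and extrudes chromatin loops. It is loaded with the help of NIPBL at active promoters and enhancers, and it accumulates where CTCF stops it. CHD4 is the ATPase of the NuRD complex, CHD8 is a chromodomain remodeler found at active promoters, SMARCA4 (BRG1) is the ATPase of the BAF complexes of embryonic stem cells, and SMARCA5 (SNF2H) is the ATPase of the ISWI complexes that space nucleosomes.

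The windows below show the DNA under the peaks on which the results turn. Each is the SMC1A summit with 100 bp to either side, read from the plus strand of GRCm38 (RefSeq) 5′ to 3′, and named by the gene with the nearest annotated start site. Capitals mark an exact match to one of the motifs searched, and a window without capitals held none. The windows near Fra10ac1 and Malat1 are GC-rich (67.7% and 67.2%) DNA at or near promoters. Those near Egfem1 and Gm38246 came from the strongest peaks with no remodeler. Those near Mir7682 and Gm16740 carried a CHD4 peak at 0 h only, with the CTCF core in capitals. The window near Nnmt gained a CHD8 peak, with the binding sequence of the nuclear receptor ESRRB in capitals. The reference marks 49.3% of this window as repeats, and binding by ESRRB was not tested.
Fra10ac1, chr19:38224064-38224264: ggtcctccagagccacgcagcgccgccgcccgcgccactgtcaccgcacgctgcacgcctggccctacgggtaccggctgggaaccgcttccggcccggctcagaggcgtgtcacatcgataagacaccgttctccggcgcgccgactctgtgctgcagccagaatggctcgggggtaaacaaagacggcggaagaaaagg
Malat1, chr19:5803631-5803831: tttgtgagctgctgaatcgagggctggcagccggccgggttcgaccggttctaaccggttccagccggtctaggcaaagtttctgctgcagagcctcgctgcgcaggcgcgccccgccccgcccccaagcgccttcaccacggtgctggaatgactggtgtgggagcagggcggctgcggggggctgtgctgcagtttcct
Egfem1, chr3:29036233-29036433: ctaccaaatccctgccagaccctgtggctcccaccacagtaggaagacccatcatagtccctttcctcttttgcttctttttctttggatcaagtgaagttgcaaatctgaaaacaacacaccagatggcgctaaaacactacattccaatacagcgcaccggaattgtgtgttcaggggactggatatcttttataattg
Gm38246, chr3:51122147-51122347: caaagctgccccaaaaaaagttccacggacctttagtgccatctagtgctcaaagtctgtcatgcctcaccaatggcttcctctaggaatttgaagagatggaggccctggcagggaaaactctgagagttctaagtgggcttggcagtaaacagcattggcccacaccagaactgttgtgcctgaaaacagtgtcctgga
Mir7682, chr1:151443284-151443484: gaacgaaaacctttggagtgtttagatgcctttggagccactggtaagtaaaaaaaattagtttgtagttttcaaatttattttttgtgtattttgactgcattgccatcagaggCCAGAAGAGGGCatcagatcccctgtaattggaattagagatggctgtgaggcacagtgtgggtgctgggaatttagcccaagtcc
Gm16740, chr3:95213100-95213300: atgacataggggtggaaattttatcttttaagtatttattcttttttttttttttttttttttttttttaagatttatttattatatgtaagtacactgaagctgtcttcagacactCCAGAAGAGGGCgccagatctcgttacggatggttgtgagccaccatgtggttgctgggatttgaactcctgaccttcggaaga
Nnmt, chr9:48597576-48597776: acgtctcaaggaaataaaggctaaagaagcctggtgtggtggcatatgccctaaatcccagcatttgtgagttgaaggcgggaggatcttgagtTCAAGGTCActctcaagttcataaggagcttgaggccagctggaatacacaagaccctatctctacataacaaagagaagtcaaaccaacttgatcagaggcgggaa

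SMC1A enrichment at these peaks was low. The authors' deposited −log10 q had a median of 3.98 (lowest 1.31, highest 29.9), and the fold enrichment a median of 4.01. At CTCF the same 2 medians were 9.94 and 5.99. A −log10 q of at least 5 was reached by 30.4% of the peaks away from CTCF and by 84.8% of those at CTCF. The median distance to the nearest CTCF peak was 19453 bp, and 49.3% were more than 20 kb from one. In the 500 bp just inside the limit, the 98 peaks had a median −log10 q of 4.17 and 35.7% lay at promoters. In the 500 bp just outside it, the 97 peaks had a median of 3.37 and 46.4%.

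The peaks away from CTCF lay at promoters more often than those at CTCF. A summit within 1 kb of an annotated start site was found for 1109 of 2872 (38.6%, 95% exact interval 36.8 to 40.4%), against 13.0% (12.4 to 13.5%) at CTCF. Another 799 lay in introns (27.8%, against 40.1% at CTCF) and 893 were intergenic (31.1%, against 42.4%). Coding exons held 38, untranslated regions 16 and exons of non-coding transcripts 17. All intervals take peaks as independent and reflect counting error alone. Of the 1109 promoter peaks, 947 (85.4%) were nearest to the start of a protein-coding gene, against 69.3% at CTCF. Their summits straddled the start site, with 63.0% within 250 bp and a median position 29 bp downstream. The annotation is that of GENCODE M21.

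**Figure D1:**
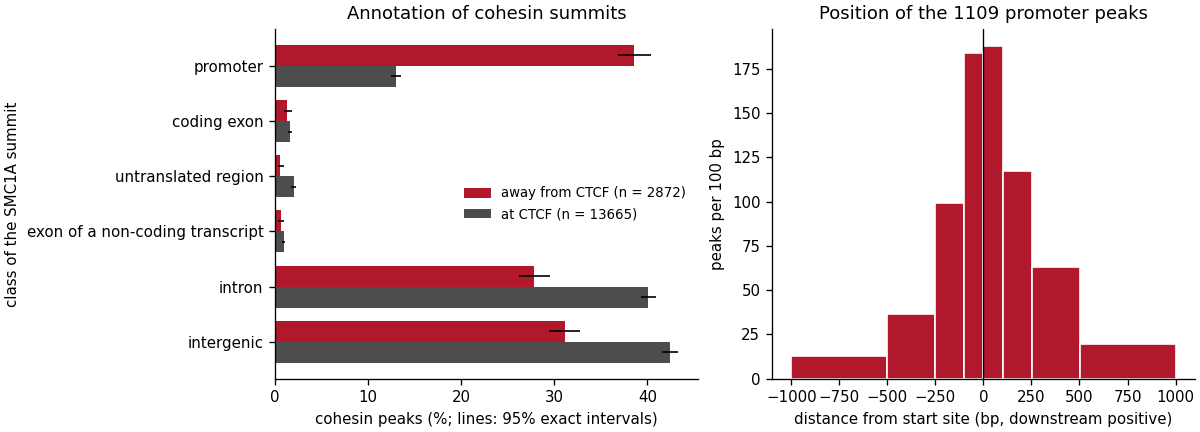
Left: share of cohesin (SMC1A 0 h) summits in each annotation class, in percent, for the 2872 peaks away from CTCF (red) and the 13665 at CTCF (grey), with 95% exact intervals as lines. Right: number of the 1109 promoter peaks per 100 bp, by signed distance of the summit from the nearest start site in bp. Promoters held 38.6% of the peaks away from CTCF and 13.0% of those at CTCF, and the highest bars lie within 100 bp of the start site.

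The 2872 peaks had 2511 different nearest genes, and 281 of these genes were nearest to 2 or more. Rnf220, which encodes a ubiquitin ligase, was nearest to 8, of which 7 lay in introns and 1 at a promoter. The 8 peaks near Rnf220 were each in 13 to 16 of the 16 remodeler lists. Jarid2, a partner of Polycomb repressive complex 2, was nearest to 5, all intergenic. Another summit away from CTCF lay within 12.5 kb of 16.7% of the 2872 peaks. Of the 13665 peaks at CTCF, a larger set, 29.3% had another summit at CTCF within this distance. The density was 0.832 to 1.83 peaks per Mb on the autosomes and 0.158 per Mb on the X. On the X the density at CTCF was also low (0.795 per Mb, 3.88 to 8.78 on autosomes).

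Genes of the pluripotency network were among the nearest genes. Of 29 pluripotency genes listed, 15 were nearest to 24 of the 2872 peaks (0.836%), against 49 of all 16723 SMC1A peaks (0.293%). Of these 24, 11 lay at promoters and the median number of remodeler lists was 12.5, against 13.0 over all 2872. The strongest of the 24 was an intergenic peak near Jam2 (fold 5.79, −log10 q 9.12). It carried the CTCF core and was in 12 lists. Nanog, a core factor of the network, had a promoter peak 21 bp downstream of its start (SMC1A fold 4.71, −log10 q 7.05) in 14 of 16 lists, and 2 intronic peaks in 10 and 11 lists. Sox2, which binds DNA together with OCT4, had a promoter peak 507 bp upstream (fold 3.18, 13 lists).

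Pou5f1, the gene of OCT4, had a peak 3100 bp upstream that was in all 16 lists (fold 4.22) and an intronic one in 6 lists (fold 4.14). Esrrb, a nuclear receptor gene, was nearest to 4 peaks: its promoter peak was in 12 lists, and the intronic peaks were in 5, 12 and 12. Klf2, a transcription factor gene of the naive state, had the widest peak of all (2333 bp, fold 4.93, 11 lists). Klf5 and Sall4, further transcription factors of the network, had promoter peaks in all 16 lists. Over the 24 peaks the list counts ranged from 5 to 16.

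Immediate early genes and targets of LIF, WNT and MEK signalling had 18 peaks at 13 of 29 genes (0.627%, against 0.251% of all SMC1A peaks). Ccnd1, which encodes cyclin D1, was nearest to 3 intergenic peaks, and the strongest of them (fold 7.74, −log10 q 17.5) was in 13 lists. The peak near Socs3, a feedback inhibitor of LIF signalling, was in 14 lists and that near Ier2, an immediate early gene, in 15. The peak near Fos, a subunit of AP-1, carried the CTCF core and was in 4. Genes of remodelers and their partners (Arid1a, Cecr2, Hdac2, Mta3) were nearest to 5 peaks, all at promoters (0.174%, against 0.0718% of all SMC1A peaks). Ribosomal protein genes were nearest to 5 (0.174%, against 0.167%) and the histone gene Hist1h1c to 1 (0.0348%, against 0.0299% for histone genes). The lineage regulator Cdx2 was nearest to 1 (0.0348%, against 0.0718% for lineage regulators). The 18 genes of cohesin and loop machinery were nearest to 0, against 6 of all SMC1A peaks (0.0359%). Small structural RNA genes were nearest to 102 peaks (3.55%, against 5.25% of all SMC1A peaks).

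Before IAA, peaks of CHD4, CHD8 and SMARCA4 sat on most of these cohesin summits. A summit was counted as occupied when a peak of the library overlapped the window of 100 bp to either side. CHD4 occupied 82.0% and 76.6% in its 2 libraries at 0 h, where the same rule called 54.7% and 43.2% of all 16723 SMC1A peaks. CHD8 occupied 72.9% and 66.9%, against 39.5% and 33.6% of all. SMARCA4 occupied 81.9% and 78.8%, against 45.2% and 35.7% of all. SMARCA5 was lowest at 41.6% and 55.4%, against 20.7% and 29.3% of all. In each of the 8 libraries, then, the peaks away from CTCF were occupied more often than the SMC1A list as a whole. High occupancy was not limited to peaks that met the rule. The 97 peaks just outside the limit of 1 kb had a median occupancy of 81.4% over the 0 h libraries (47.4 to 88.7%). For the 98 peaks just inside it the median was 76.5% (41.8 to 88.8%).

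The contrast with cohesin at CTCF was measured as the log2 odds ratio of being occupied, 0.5 added to each cell. It was positive in 8 of 8 libraries, from 1.91 (SMARCA5 replicate 1) to 3.40 (SMARCA4 replicate 2), with a mean over the remodelers of 2.52. The two-sided exact sign-flip permutation test over libraries gave p = 0.00781, the smallest it can give, and an adjusted p of 0.0234 over 9 tests. This test takes the 8 libraries as independent. They are 2 from each of 4 lines, scored on the same sites, so the p-value may be too small. SMC1A strength and the promoter share (38.6% against 13.0%) differed between the sets, as given above. The part of the promoter share in the contrast was not tested. Distal peaks alone were above all peaks at CTCF in each library, for CHD8 at 59.0% and 52.1% against 31.9% and 26.1%. With both sets limited to SMC1A peaks of −log10 q of at least 5, the contrast was 2.31. When a remodeler summit, and not only a peak, had to lie in the window, it was 1.17 and was positive in 7 of 8 libraries (exact sign-flip permutation p = 0.0156, adjusted p = 0.0469). CHD4 replicate 1 was then at 23.2% away from CTCF and 23.6% at CTCF, a contrast of −0.04. The contrast stayed past the threshold in this as in the other alternatives run.

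Lists differed in length and peak width. The CHD4 lists held 105001 to 187294 peaks, the CHD8 lists 40880 to 51943, the SMARCA4 lists 70428 to 102636 and the SMARCA5 lists 55488 to 73238. Occupancy followed the length in some comparisons and not in others. Within a remodeler and time, the longer list had the higher occupancy for CHD8 and SMARCA5 at both times and for SMARCA4 at 0 h. The reverse held for CHD4 at both times and for SMARCA4 at 12 h. Between remodelers, CHD8 was above SMARCA5 with shorter lists. The longest list, CHD4 0 h replicate 2, had a lower occupancy than CHD4 0 h replicate 1 with 111947 peaks. Median peak width was 119 bp in the first of these CHD4 lists and 433 bp in the second. A window of the same size placed at every genome position would touch a peak at 1.45% (CHD8, 0 h replicate 2) to 4.41% (SMARCA4, 12 h replicate 2) of positions. Occupancies of different remodelers were not tested against each other.

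Promoter peaks were occupied more often than the 1763 others, called distal here. At 0 h, CHD8 occupied 95.0% and 90.4% of promoter peaks and 59.0% and 52.1% of distal ones. CHD4 occupied 93.7% and 88.7% of promoter peaks and 74.7% and 68.9% of distal ones, and SMARCA4 95.0% and 90.1% against 73.7% and 71.8%. SMARCA5 occupied 46.9% and 67.7% against 38.3% and 47.6%. The log2 odds ratio, promoter against distal, was positive in 8 of 8 libraries. Its mean per remodeler was highest for CHD8 (3.40 ± 0.42, SD, n = 2) and lowest for SMARCA5 (0.85 ± 0.49, SD, n = 2). The mean of 2.15 gave an exact sign-flip permutation p of 0.00781 (two-sided, adjusted p = 0.0234). The 8 libraries were again taken as independent, with the same limit. With a remodeler summit required in the window the mean was 0.63. With remodeler lists at −log10 q of at least 5, the contrast of SMARCA5 replicate 1 was −0.38 and the other 7 stayed positive.

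**Figure D2:**
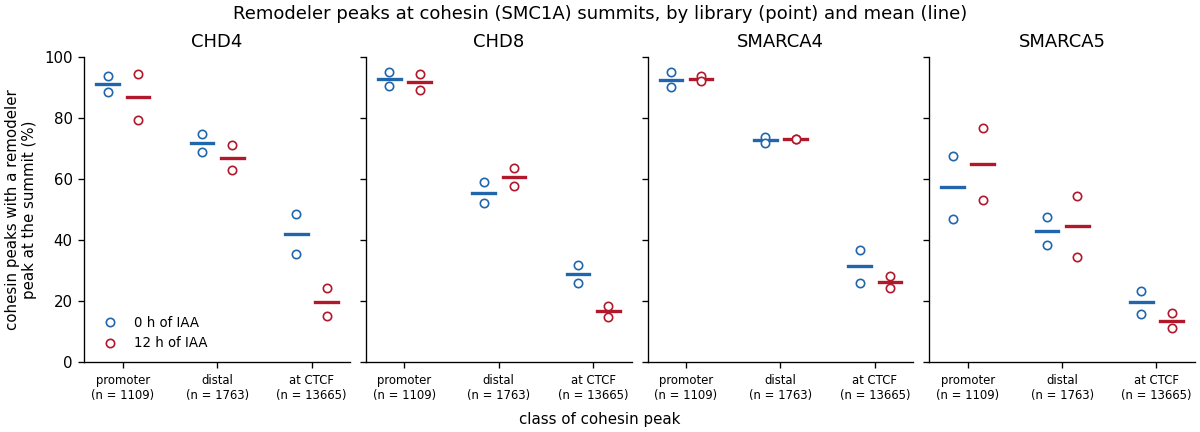
Percent of cohesin summits with a peak of the named remodeler, for promoter and distal peaks away from CTCF and for peaks at CTCF. Each point is a library (2 per time), lines are means, blue is 0 h and red 12 h of IAA. The 0 h and 12 h points cover overlapping ranges in both classes away from CTCF, and the CHD4, CHD8 and SMARCA4 points of promoter peaks lie between 79.4% and 95.0%.

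CHD4, CHD8 and SMARCA4 were often listed at the same summits. At 0 h, 873 peaks (30.4%) were in both libraries of CHD4, CHD8 and SMARCA4 but not in both of SMARCA5, and 785 (27.3%) were in both libraries of all 4. At CTCF these shares were 7.72% and 6.27%. CHD4 with SMARCA4 alone was next, with 233 peaks (8.11%, against 2.36% at CTCF), made up of 11.4% of distal and 2.89% of promoter peaks. No remodeler had both of its 0 h libraries at 485 peaks (16.9%, against 58.7% at CTCF). Over the 16 lists, 495 peaks (17.2%) were in all 16, against 5.60% of all SMC1A peaks. Another 352 (12.3%) were in none, against 31.0% of all SMC1A peaks. Most of the rest were in nearly all lists. The shares in 13, 14 and 15 lists were 11.8%, 15.0% and 15.9%, against 2.61%, 2.80% and 2.71% at CTCF. The peaks in no list were nearly all distal, 340 against 12 at promoters.

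**Figure D3:**
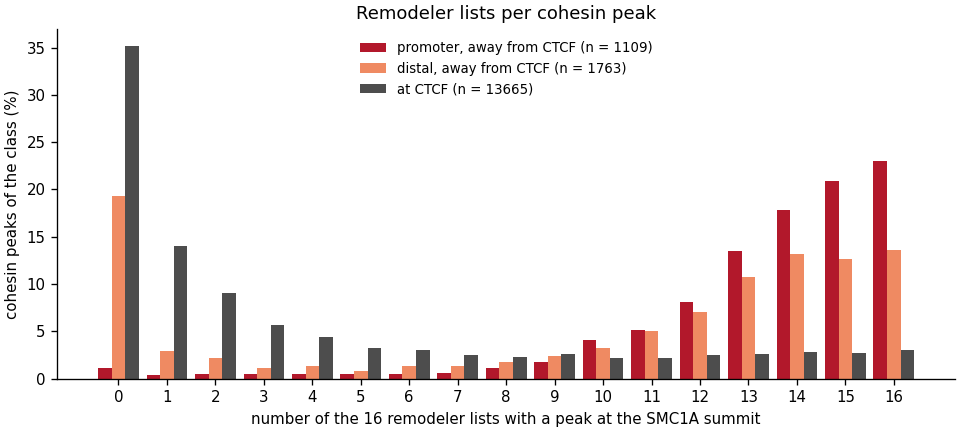
Percent of cohesin peaks (vertical axis) with a peak of 0 to 16 of the remodeler lists at the SMC1A summit (horizontal axis), for promoter peaks away from CTCF, distal peaks away from CTCF and peaks at CTCF. Promoter peaks rise toward 16 lists (23.0%), distal peaks have a second group of 19.3% at 0, and peaks at CTCF are highest at 0 (35.2%).

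Malat1, Gm6728 and Fubp3 were the named examples of peaks in all 16 lists. The peak near Malat1, a nuclear long non-coding RNA, lay 1059 bp upstream of its start (fold 4.25, chr19:5802701-5804232) and was 1532 bp wide. That of Fubp3, which encodes a nucleic acid binding protein, lay 675 bp from its start (fold 3.38). With a remodeler summit required in the window, the peak near Gm6728 was in 7 lists, that near Malat1 in 2 and that of Fubp3 in 0. Among the strongest promoter peaks, Fra10ac1 (fold 9.33, −log10 q 22.2, summit 26 bp upstream of the start) was in 14 lists. The promoter peak of Platr19, a long non-coding RNA gene named for its link to pluripotency, was in 15 and that of the centromere protein gene Cenpu in 12. The promoter peak at the pseudogene Gm17157 inside Ulk4 was in 1.

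The 5 strongest distal peaks were in 0 to 6 of the remodeler lists. The peak nearest Gm45520, in an intron of Erich1, had the highest SMC1A value of all (fold 10.1, −log10 q 29.9, 6 lists: both CHD4 libraries at 0 h and all 4 of SMARCA4). The peak near Mir710 (fold 9.63, −log10 q 27.8) was in 1 list. The peaks near Egfem1 (fold 9.57), Gm38246 (fold 8.68) and Gdpd4 (fold 9.03) were in none. Across 5 classes of equal size by SMC1A strength, the share in no list was 9.39% in the weakest class and 19.3% in the strongest. The share in all 16 lists was 15.5% and 16.2% in the same classes.

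The peaks in no list often carried the CTCF motif. The motif core searched was CCA, AG and GGC in this order with any 2 bases between neighbours, on both strands of the window. It was found at 131 of the 352 peaks in no list (37.2%, 95% exact interval 32.2 to 42.5%). Of the 495 peaks in all 16 lists it was found at 10 (2.02%), and of the 2025 in between at 88 (4.35%). Cohesin peaks at CTCF held it in 50.3% of windows. Of all windows of the same length, 1.47% of those at annotated start sites and 1.04% of those on the genome grid held it. Split by SMC1A strength, a setting chosen after seeing the data, the share was 34.6% for peaks in no list of −log10 q below 5 and 38.1% for such peaks at CTCF. At −log10 q of at least 5 it was 40.8% and 52.4%.

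**Figure D4:**
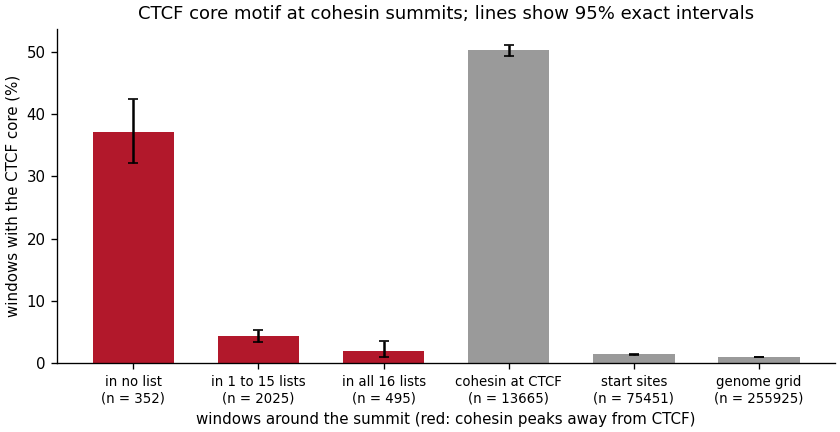
Percent of windows, each 100 bp to either side of a summit, that hold the CTCF core, with 95% exact intervals as lines, for peaks away from CTCF by number of remodeler lists (red) and for comparison windows (grey). The share is 37.2% for peaks in no list, 4.35% and 2.02% for those in 1 to 15 and in 16 lists, and 50.3% for cohesin at CTCF.

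Among distal peaks alone, the core was at 127 of 340 in no list (37.4%) and at 3 of 240 in all 16 (1.25%). It lay near the summit. In peaks in no list the middle of the match was at a median of 25.5 bp from the SMC1A summit, against 20.5 bp at CTCF and 47.5 bp in grid windows that held it. With 1 of the 8 fixed bases left free, a setting chosen after seeing the data, 73.0% of peaks in no list had a match, against 27.9% of those in all 16 lists, 86.6% at CTCF and 12.9% of every 10th grid window. The windows near Egfem1 and Gm38246 shown above matched in this way. That near Gdpd4, also among the strongest peaks in no list, did not. Of the 5 strength classes, the strongest held the exact core in 13.6% of windows and the weakest in 4.87%.

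One version of the core was common. The 12 bases CCAGAAGAGGGC, as in the windows near Mir7682 and Gm16740, made up 90 of the 229 matches among all 2872 peaks. They made up 54 of the 131 in no list, 1671 of 6868 at CTCF and 967 of 2668 on the grid. Of the matches, 53.4% in peaks in no list lay in sequence that the reference marks as repeats, against 35.5% at CTCF and 56.0% on the grid. How the authors handled reads with several placements is not given in the sources used here, and the part of repeats in these peaks was not tested.

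Base composition also went with the number of lists. The median GC content of the window was 43.8% for peaks in no list and 59.2% for those in all 16, of which 3.41% and 51.5% lay at promoters. Among distal peaks alone it was 43.8% and 51.2%. Promoter peaks as a whole were at 67.7% and the grid at 41.8%. The peaks in no list were farther from CTCF, with a median of 38018 bp against 19383 bp for those in all 16. They were also farther from genes, at a median of 19309 bp from the nearest start site. Of the 313 peaks more than 100000 bp from any CTCF peak, 15.0% held the core and 45.7% were occupied by CHD8 at 0 h on average. Of the 531 peaks at up to 5000 bp, 7.72% held the core and 74.8% were occupied by CHD8.

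Other motifs were rarer, and some differed between promoter and distal peaks. TCAAGGTCA, bound by ESRRB, was in 52 of 1763 distal windows (2.95%), against 0.344% at CTCF and 0.399% of the grid. ATGCAAAT, the octamer of OCT4 and its relatives, was in 2.50% of distal windows, against 0.988% at CTCF and 1.79% of the grid. GGGNGTGGC, bound by KLF factors, was in 4.42% of promoter and 3.80% of distal windows, against 2.99% of start sites and 0.703% of the grid. CCGGAAGT, bound by ETS factors, was in 2.52% of promoter windows and 2.60% of start sites. GCGCATGCG, bound by NRF1, was in 8 promoter windows (0.721%, against 0.995% of start sites) and in no distal one. CTACAANTC of ZFP143 was in 13 of the 2872 windows (0.453%, against 0.593% at CTCF and 0.497% of the grid). AAGATGGCG of YY1 was in 18 (0.627%, against 0.673% at CTCF and 0.215% of the grid). GTTCGANNC, the B box of RNA polymerase III genes, was in 34 (1.18%, against 0.520% at CTCF and 0.835% of the grid). All were searched on both strands, and a match is a description only.

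After 12 h of IAA, remodeler occupancy of these peaks did not pass the test for a change. CHD4 was at 80.2% and 69.3% in its 2 libraries, where 34.6% and 25.2% of all SMC1A peaks were occupied. CHD8 was at 75.5% and 69.8%, against 28.9% and 25.0% of all. SMARCA4 was at 81.2% and 80.5%, against 34.8% and 37.9% of all. SMARCA5 was at 63.1% and 41.6%, against 24.7% and 16.7% of all. For each remodeler the 12 h libraries overlapped the range of the 0 h libraries.

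The mean difference over the 4 remodelers, 12 h minus 0 h, was 0.644 percentage points, with a pooled replicate SD of 7.41. The two-sided exact permutation test, which exchanged time labels within each remodeler, gave p = 0.846 (adjusted p = 0.880). For promoter peaks the difference was 0.733 points (exact permutation p = 0.858) and for distal peaks 0.588 points (exact permutation p = 0.843). The promoter contrast differed by −0.04 log2 odds (exact permutation p = 0.880). Reference regions had peaks of the other remodelers and lay more than 1 kb from every CTCF and every SMC1A peak of 0 h. Against them the log2 odds ratio differed by −0.27, below 0 in 4 of 4 remodelers (exact permutation p = 0.201, adjusted p = 0.451). Only for SMARCA4 did the 12 h libraries (−0.80 and −1.22) lie apart from the 0 h ones (−0.76 and 0.07) in this measure. The median rank of the remodeler peaks at these sites within their own lists differed by 1.45 percentile points (exact permutation p = 0.275, adjusted p = 0.494). In this measure only SMARCA5 had both 12 h libraries (83.3 and 81.3) above both 0 h ones (74.9 and 80.7), a difference of 4.52 points. These p-values do not show that occupancy was the same at both times, since replicates differed by several points.

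SMARCA5 shows the size of the replicate spread. Its lists come with peak names of 2 kinds. Both lists named by target first were at 41.6%, and the other 2, named by time first, were at 55.4% at 0 h and 63.1% at 12 h. The lists named by time first were also the longer ones (73238 and 71067 peaks, against 55488 and 67059). Within each kind the difference, 12 h minus 0 h, was 0 and 7.73 points. For SMARCA4 it was −1.36 and 2.37 points. Of the CHD4 lists of 12 h, the 1 named by time first was at 80.2% and the other at 69.3%. Here the list named by time first was the shorter (105001 against 159918 peaks), with wider peaks (median 475 against 94.0 bp). For SMARCA4 the list named by time first was lower at 0 h (78.8% against 81.9%) and higher at 12 h (81.2% against 80.5%). What the naming stands for is not given in the sources used here, and its part in the values was not tested. Without SMARCA5 12 h replicate 1 the mean difference was −2.04 points, and without SMARCA5 12 h replicate 2 it was 3.33.

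Set against cohesin at CTCF, the contrast in remodeler occupancy rose. For CHD4 the contrast was 2.28 and 2.56 log2 odds at 0 h and 3.65 and 3.64 at 12 h. For CHD8 it was 2.52 and 2.51, then 3.77 and 3.72. For SMARCA5 it was 1.91 and 2.03, then 3.15 and 2.52. In these 3 remodelers the 12 h libraries lay above the 0 h ones, and SMARCA4 overlapped, with 2.95 and 3.40, then 3.75 and 3.39. The mean rise was 0.93 log2 odds, above 0 in 4 of 4 remodelers (two-sided exact permutation p = 0.00309, adjusted p = 0.0234). Occupancy at CTCF was 48.5% and 35.6% at 0 h and 24.4% and 15.3% at 12 h for CHD4, and 31.9% and 26.1%, then 18.4% and 15.0% for CHD8. In SMARCA4 (36.9% and 26.0%, then 24.3% and 28.3%) and SMARCA5 (15.9% and 23.3%, then 16.1% and 11.1%) the libraries of the 2 times overlapped at CTCF. Leaving out the peaks with the CTCF core from the set away from CTCF, with the set at CTCF unchanged, gave a rise of 0.96. Limiting both sets to SMC1A −log10 q of at least 5 gave 0.95.

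Few single peaks met the rule for a change of state. A peak was counted as lost by a remodeler when it was in both 0 h lists and neither 12 h list, and as gained in the opposite case. CHD4 was lost at 41 of 2872 (1.43%) and gained at 9 (0.313%), while the same rule called 9.35% and 0.167% of all SMC1A peaks. CHD8 was lost at 23 (0.801%, against 5.11% of all) and gained at 47 (1.64%, against 0.437% of all). SMARCA4 was lost at 18 (0.627%, against 2.31% of all) and gained at 16 (0.557%, against 0.879% of all). SMARCA5 was lost at 42 (1.46%, against 2.56% of all) and gained at 94 (3.27%, against 1.23% of all). With 2 lists per time no single peak has a test. The counts moved with the rule: with a remodeler summit required in the window, CHD4 was lost at 71 and gained at 68, and SMARCA5 gained at 35.

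**Figure D5:**
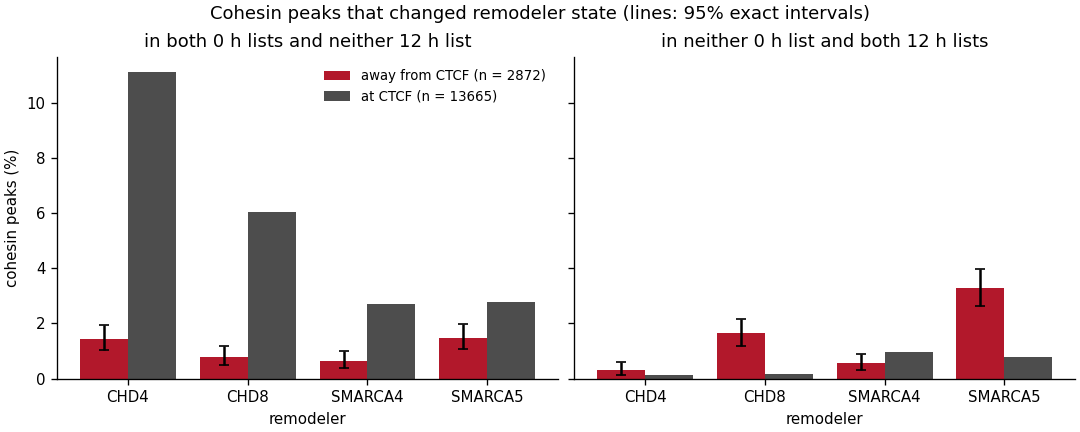
Percent of cohesin peaks (vertical axis) in both 0 h lists and neither 12 h list of a remodeler (left) and the reverse (right), for peaks away from CTCF (red, with 95% exact intervals) and at CTCF (grey). At CTCF the CHD4 loss is 11.1% and away from CTCF it is 1.43%, and the SMARCA5 gain away from CTCF is 3.27%.

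The peaks lost by CHD4 often held the CTCF core. It was in 13 of the 41 (31.7%, 95% exact interval 18.1 to 48.1%), against 29 of the 1881 with CHD4 in all 4 libraries (1.54%) and 148 of the 436 with CHD4 in none (33.9%). Of the 13, 11 had the version CCAGAAGAGGGC and 11 lay in marked repeats. At CTCF, 55.8% of the 1520 peaks lost by CHD4 held the core. For the other remodelers the core was at 2 of 23 lost peaks (CHD8), 2 of 18 (SMARCA4) and 1 of 42 (SMARCA5). Over all 229 peaks with the core, CHD4 occupied 32.8% and 23.6% at 0 h and 20.5% and 15.3% at 12 h, so the libraries of the 2 times did not overlap. Over the 2643 without it, CHD4 was at 86.3% and 81.2%, then 85.3% and 73.9%. These groups were chosen after their values were seen and are given without a test.

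CHD4 was lost at the peak near Mir7682, 991 bp from the start of this miRNA inside Trmt1l (SMC1A fold 6.78), and at the one near Gm16740, in an intron of Gabpb2 (fold 3.73). Both were in no other list and both windows are shown above. CHD4 was gained near Traf6, a signalling ubiquitin ligase gene, where SMARCA4 was also listed only at 12 h, and near Ptpn2, a phosphatase gene. CHD8 was gained in an intron of Nnmt, a methyltransferase gene, and near the kinesin gene Kifc1, where CHD4 and SMARCA4 were in all 4 of their lists. CHD8 was lost near Gm8197 and Gm47030. SMARCA4 was lost at the promoter sides of Tsc22d1 and Uspl1 and gained 3 bp from the start of Ttc14 and near 1700057H21Rik, where no other remodeler was listed. SMARCA5 was lost near Rybp, a Polycomb partner gene, and in an intron of Tns3, and gained near Irf2bp2, a corepressor gene, with the other 3 remodelers in all of their lists at each of these 3 sites. SMARCA5 was also gained near the pseudogene Gm18283, where CHD8 and SMARCA4 were in all of their lists and CHD4 in 3 of 4.

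Summits of CHD8, CHD4 and SMARCA4 lay nearer to the SMC1A summit than an even spread would put them, and those of SMARCA5 did not, for chromatin sheared to 200 to 400 bp. Of summits within 250 bp, an even spread would put 40.1% within 100 bp. Of CHD8 summits within 250 bp of it, 54.6% and 52.6% were within 100 bp in the 2 libraries at 0 h, with medians of 92.0 and 96.0 bp. For CHD4 the shares were 47.7% and 43.6%, and for SMARCA4 47.2% and 49.8%. For SMARCA5 they were 36.7% and 34.8%, with medians of 138 bp in both. At 12 h the CHD8 medians were 88.0 and 93.0 bp. The shares within 100 bp at 12 h were 50.4% and 43.1% for CHD4, and 43.5% in both SMARCA4 libraries. At cohesin peaks at CTCF the CHD8 medians were 71.0 and 74.0 bp at 0 h, and 102 bp in 12 h replicate 1.

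Of the 2872 peaks, 5 overlapped a peak of the 12 h lists of SMC1A or CTCF. An SMC1A peak of 12 h overlapped 4 (0.139%, against 6 of 13665 or 0.0439% at CTCF), near Gm43674 (fold at 0 h 9.03), Igsf21 (7.50), 4930589P08Rik (7.40) and at the promoter of Cpped1 (3.70). A CTCF peak of 12 h overlapped 1 (0.0348%, against 13.1% at CTCF), near Sgk1, which held the CTCF core and was in 2 remodeler lists. The rule, which took sites without CTCF at 0 h, bears on this count. These 5 were named after their values were seen. The 12 h SMC1A list is 1 library with 10 peaks, so the other sites had no listed SMC1A peak after IAA. RefSeq tRNA genes lay within 1 kb of 9 summits (0.313%, against 0.198% at CTCF), and the 9 peaks were in 14 to 16 of the 16 lists.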

How the data were processed

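Peak lists of 20 ChIP-seq libraries were used, and the 10 input samples were not used here. Per the submitters' processing notes, Trim Galore, Bowtie2, MACS2 and deepTools were used and mm10 and hg38 were named as builds. All peaks ended within the chromosome lengths of GRCm38 (mm10). The deposited lists give for each peak the authors' fold enrichment (a ratio to local background), −log10 p and −log10 q, a score and the summit position, and these served to describe, rank or filter peaks of the same list. The deposited lists reach down to a −log10 q of 1.30, and a site without a peak may still hold signal.

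Occupancy was an overlap of at least 1 bp between a remodeler peak and the SMC1A summit with 100 bp to either side. Reference regions had a peak in 6 or more of the 12 lists from the other remodelers. They lay more than 1 kb from every CTCF and every SMC1A peak of 0 h. Tests used libraries as units: exact permutations of the time labels within remodelers (1296 relabellings, smallest p 0.00154) and exact sign flips (256), with Benjamini-Hochberg adjustment over 9 tests and a threshold of 0.05. Intervals are exact (Clopper-Pearson, 95%). The measures were tested on simulated lists. Software was Python 3.11.15, NumPy 2.4.6 and SciPy 1.17.1, with GENCODE M21 and the RefSeq sequence of GRCm38.

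The peaks and gene lists were chosen with earlier results of these data known. Peaks were named by rule: the 5 strongest promoter and 5 strongest distal peaks, the 2 highest-ranked lost and gained peaks of each remodeler, 3 peaks in all 16 lists and 3 in none, and up to 4 of each gene list. Outside this rule, the peaks of Sox2, Pou5f1, Klf5 and Sall4 and the further peaks of Nanog and Esrrb were also named. So were Rnf220 and Jarid2, for their number of peaks. One of the strongest promoter peaks is not reported here. Alternatives were a −log10 q of at least 5 for remodeler or SMC1A peaks, equal list lengths, a remodeler summit in the window, a window of 250 bp, a distance of 5 kb from CTCF, peaks without the CTCF core, promoters within 2 kb, a fit with a replicate block, and 1 library left out at a time.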

Additional observations from a re-analysis of the deposited data

How the results depend on the processing

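The rise of the contrast with cohesin at CTCF, that contrast at 0 h and the promoter contrast at 0 h kept their direction and stayed past the threshold in every alternative run, with adjusted p from 0.0139 to 0.0469 for the rise. Of the values that did not pass, the change against reference regions stayed below 0 in all 24 alternatives. The others turned sign in some alternatives. With remodeler lists at −log10 q of at least 5, the change of the promoter contrast was 0.00, and with a remodeler summit in the window it was 0.12. The change at distal peaks was −0.158 with SMC1A −log10 q of at least 5 and −0.106 with a remodeler summit in the window, where the rank change was −0.0927. The promoter share was 44.0% within 2 kb and 36.5% at SMC1A −log10 q of at least 5. The cause of these shifts was not tested.

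Leaving out each library in turn gave ranges of −2.04 to 3.33 points for the occupancy change, −0.41 to −0.14 against reference regions, 0.85 to 1.01 for the rise against CTCF, 2.39 to 2.61 and 1.93 to 2.39 for the 0 h contrasts, −0.24 to 0.16 for the promoter change, −2.22 to 3.69 and −1.93 to 3.11 points for promoter and distal peaks, and 0.725 to 2.17 for the rank.

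Replicate numbers are shared by the groups, but nothing ties equal numbers together. Over the peaks, the replicate differences at the 2 times correlated at 0.16 (CHD4), 0.14 (CHD8), −0.05 (SMARCA4) and −0.06 (SMARCA5). With a replicate block the rise against CTCF was 0.93 with an adjusted exact permutation p of 0.0469, and no call changed.

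As a share of the peaks kept in each alternative, CHD4 was lost at 0.940% to 2.47% and gained at 0% to 2.37%, SMARCA4 was lost at 0.313% to 2.79% and gained at 0.229% to 1.78%, CHD8 was lost at 0.627% to 1.67% and gained at 1.26% to 2.23%, and SMARCA5 was lost at 1.08% to 1.55% and gained at 1.22% to 3.52%. For the named peaks, the number of lists moved beyond its counting interval in 64 values and stayed within it in 254. The share of peaks in no list with the CTCF core was 37.3% over 5 kb from CTCF, a setting chosen after seeing the data. Depth is unknown, which limits what an absent peak can show.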
